A study of Mus musculus with 6 samples.

Results

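Genes that fold, sense and process secreted protein in the endoplasmic reticulum (ER) were compared between mouse esophageal and stomach organoids. The 10 genes were *Agr2*, *Ern2*, *Creb3l1*, *Creb3l4*, *Xbp1*, *Ern1*, *Hspa5*, *Pdia4*, *Dnajb9* and *Ddit3*. They were found by name among the 34298 gene names of the arrays and were carried by 14 of the 55681 distinct probes, 4 of them for *Ern1* and 2 for *Dnajb9*. *Agr2*, *Ern2*, *Creb3l1* and *Creb3l4* were taken as genes of mucous and other secretory cells, and the other 6 as general factors that most cells use.

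RNA was measured on 6 single-color Agilent arrays, 3 of esophageal and 3 of stomach organoids. Organoids are epithelial cultures grown in 3 dimensions from tissue stem cells, and both kinds carry the mouse numbers 1, 2 and 4 in the labels, at passage 0, though a shared animal is not stated outright. All were labelled as controls, the strain, sex and age of these mice were not given in the labels, and the methods list wild-type C57BL/6 mice beside reporter strains. Esophageal organoids were harvested on day 8, as were the stomach organoids of mice 1 and 2, and those of mouse 4 on day 7. In the culture recipes of the methods, stomach organoids came from glands of the corpus and were grown with WNT3A, R-spondin1 and gastrin. The esophageal recipe left these out and held forskolin. Both media held EGF, noggin, FGF-10, N-acetyl-cysteine, nicotinamide, a TGF-β receptor kinase inhibitor, a ROCK inhibitor, B27 and N2. The labels do not name the medium of these arrays, and the paper also grew esophageal organoids with WNT3A and R-spondin1. By these recipes tissue and medium changed together, so their parts cannot be told apart. Nor can day of harvest and mouse for the stomach array of mouse 4. The array of esophageal mouse 4 was alone on its slide, so slide and mouse cannot be told apart there.

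Secretory cells pass their products through the ER, where chaperones and disulfide isomerases fold them. When unfolded protein builds up, the membrane sensors IRE1, PERK and ATF6 start the unfolded protein response: IRE1 splices the mRNA of the transcription factor XBP1, PERK slows translation and raises ATF4 and then CHOP, and ATF6 is cut in the Golgi to release a transcription factor. Mucous cells of the gut and airways carry their own versions of this machinery, among them the isomerase AGR2, which is needed for mucin folding, and IRE1β, the product of *Ern2*.

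The promoter window was 250 bases before to 50 after each start site (GRCm38.p6). Promoter sequences of 8 of the 10 genes, all but *Ern2* and *Creb3l1*, were held by the RefSeq table used here. They were searched on both strands for the ER stress response element ERSE, which is CCAAT, any 9 bases and CCACG, and which ATF6 binds with NF-Y in the textbook account. An exact match stood in 0.119% of all 32851 promoters of the same length. Among the 8 genes it stood only in the promoter of *Hspa5*, which encodes the chaperone BiP. The *Hspa5* stretch is chr2:34771840-34772089, plus strand, with the match in capitals at chr2:34772025-34772043. The upstream stretch of *Agr2*, chr12:35992675-35992924, plus strand, is shown beside it because *Agr2* differed most between the tissues. It held no match to ERSE.
Hspa5: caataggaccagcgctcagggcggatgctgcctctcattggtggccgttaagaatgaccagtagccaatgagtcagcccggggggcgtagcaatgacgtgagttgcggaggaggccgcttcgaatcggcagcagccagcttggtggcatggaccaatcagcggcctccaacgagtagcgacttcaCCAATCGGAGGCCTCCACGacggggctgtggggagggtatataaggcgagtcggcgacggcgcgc
Agr2: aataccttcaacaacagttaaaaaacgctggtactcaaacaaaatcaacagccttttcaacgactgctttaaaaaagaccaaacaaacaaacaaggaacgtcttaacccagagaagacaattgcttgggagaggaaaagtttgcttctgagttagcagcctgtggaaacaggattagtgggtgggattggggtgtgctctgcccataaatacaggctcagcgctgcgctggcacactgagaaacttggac

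The first block of the element, CCAAT, occurred 4 times in the *Hspa5* promoter and 3 times in that of *Pdia4*, and in 37.4% of all promoters. The second block, CCACG, stood once in each of these promoters and in 32.8% of all promoters. CCAAT also occurred in promoters of *Agr2*, *Creb3l4*, *Dnajb9* and *Ddit3*, and CCACG in those of *Ern1*, *Creb3l4* and *Dnajb9*. None of the 8 genes held ERSE-II (ATTGG, any base, CCACG, in 0.0365% of promoters), the core of the unfolded protein response element UPRE (TGACGTGG, in 0.676%) or the C/EBP-ATF composite TGATGNAAN (in 3.95%), which ATF4 with C/EBP partners is known to bind. A missing match says only that these letters were not in this window.

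The 4 mucous- and secretory-cell genes were all higher in stomach organoids, with differences (esophagus minus stomach, log2) of -9.60 to -2.47, and each of their probes passed the test at adjusted p under 0.05. Of the 10 probes of the general factors, 1 was higher in the stomach (*Xbp1*), 2 were higher in the esophagus (both of *Ern1*) and 7 did not pass. Together 7 of 14 probes were called, 5 higher in the stomach and 2 higher in the esophagus. Over all probes, 12.2% were called, 6.22% higher in the stomach and 5.94% higher in the esophagus (limma, Benjamini-Hochberg adjustment over all 55681 probes). The 3 values of one tissue lay apart from the 3 of the other at 8 of the 14 probes, and at 28.6% of all probes with a value on every array. The median difference, esophagus minus stomach, was -4.59 over the 4 probes of the first group and 0.42 over the 10 probes of the second, against 0.02 over all probes. Those 10 probes count *Ern1* 4 times and *Dnajb9* 2 times, and with the brightest probe of each of the 6 genes the median was 0.028. The -4.59 rests in part on *Ern2*, which was not well above background on any esophageal array, so it is not an exact size. Values are log2 intensities that the authors had background corrected and quantile normalized. In these bulk samples, fewer cells of a type and less RNA per cell cannot be told apart.

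**Figure D1:**
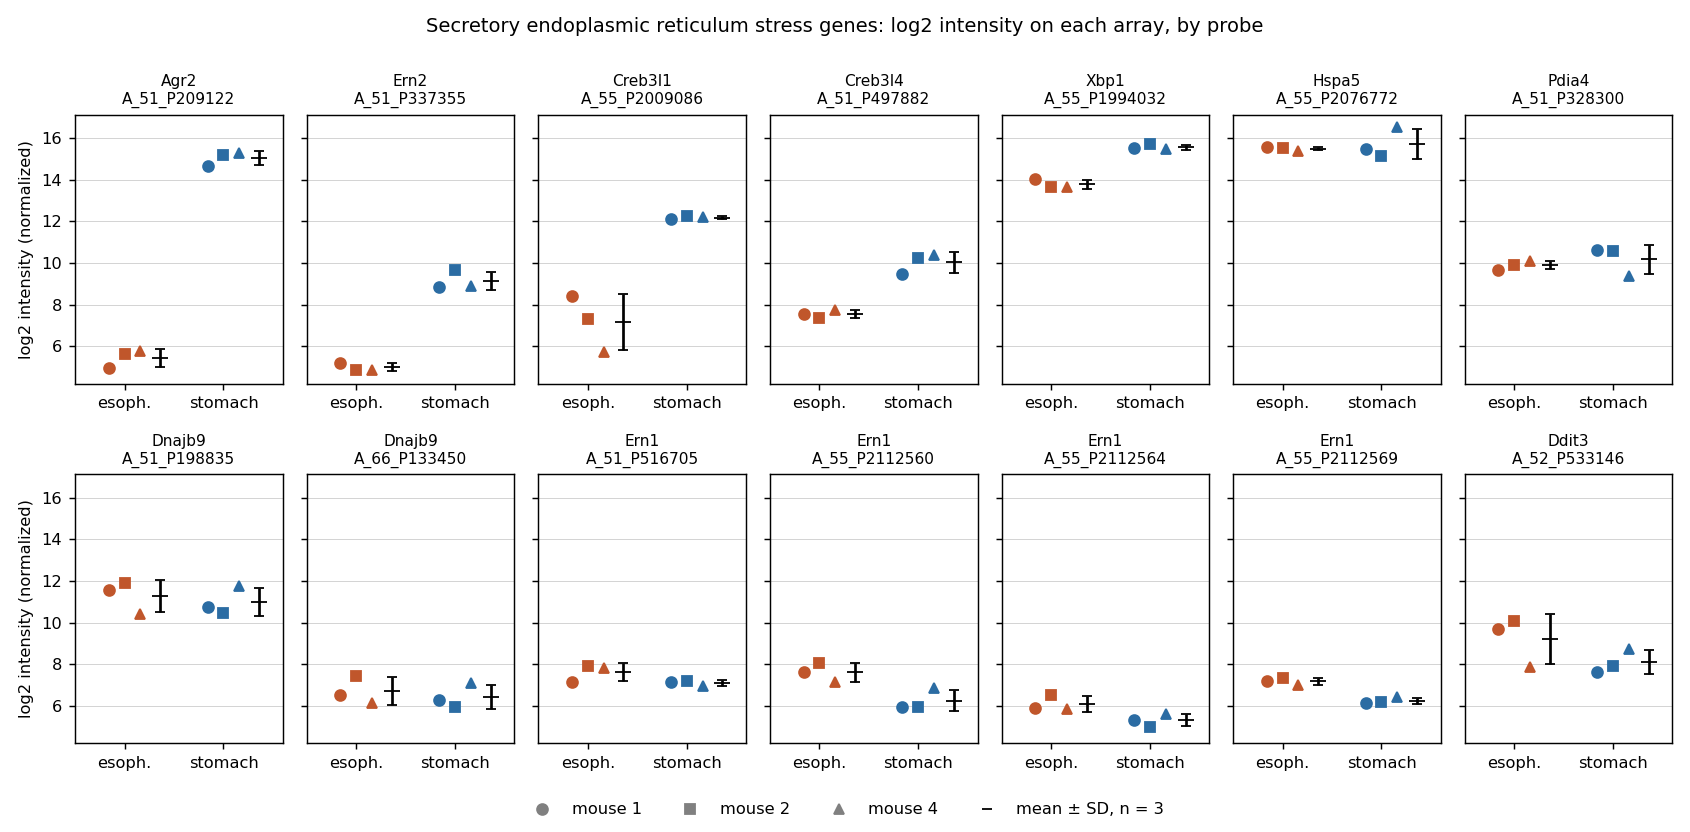
Log2 intensity (vertical axis, shared scale) of each of the 14 probes on each array, with esophagus in orange and stomach in blue, circles for mouse 1, squares for mouse 2, triangles for mouse 4, and the black mark for the mean ± SD of 3 arrays. *Agr2* lies between 4.94 and 5.78 in the esophagus and between 14.67 and 15.29 in the stomach, whereas *Hspa5* and *Dnajb9* overlap between the tissues.

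*Agr2* encodes a disulfide isomerase of mucous cells. Its probe (NM_011783, mm9 chr12:36730506-36730565, plus strand) read 4.94, 5.61 and 5.78 in the esophageal organoids of mice 1, 2 and 4 and 14.67, 15.19 and 15.29 in their stomach organoids. All 3 stomach values stood far above the esophageal ones, and in the esophagus the probe was well above background on the arrays of mice 2 and 4 only. The difference was -9.60 ± 0.27 (SE, n = 3 per tissue, adjusted p = 4.63e-07), and -11.19 to -8.70 over the processing alternatives. Without the esophageal array of mouse 1, where the probe was not well above background, it was -9.35, and the exact size is limited by dim esophageal readings.

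*Ern2* encodes IRE1β, the IRE1 paralog of mucous epithelia. Its probe (NM_012016, mm9 chr7:129316864-129317006, minus strand) read 5.21, 4.85 and 4.88 in the esophagus and 8.85, 9.65 and 8.90 in the stomach. It was not well above background on any esophageal array, so only a bound can be given there. By the means, stomach organoids had at least 16.7-fold more *Ern2* (measured difference -4.16 ± 0.24 (SE), adjusted p = 2.27e-05). Each such bound divides the bright tissue's mean by a floor averaged across the dim tissue's 3 arrays. It allows for dim readings only and leaves out the spread between arrays, so it is not a lower confidence limit. On each array the floor was the dimmest probe still well above background, or the probe's own reading if that was larger. The bounds belong to the authors' background correction and change with it: the *Ern2* difference was -3.13 with a normexp offset of 50 and -6.65 with processed signals scaled to the 75th percentile.

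*Creb3l1* encodes OASIS, a membrane-bound transcription factor of secretory cells that is released by cleavage like ATF6. Its probe (NM_011957, mm9 chr2:91822506-91822565, minus strand) read 8.43, 7.33 and 5.74 in the esophagus and 12.11, 12.24 and 12.20 in the stomach. The stomach values lay within 0.12 of each other, while the esophageal values spread over 2.69, from the highest in mouse 1 to the lowest in mouse 4. Of the 21370 probes well above background on all 6 arrays, 1.06% had a larger spread over the esophageal arrays. The difference was -5.02 ± 0.58 (SE, adjusted p = 9.88e-04), and it was -4.31 to -5.65 when each array was left out in turn.

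*Creb3l4* encodes AIbZIP, another member of the same family. Its probe (NM_030080, mm9 chr3:90041531-90041590, minus strand) read 7.55, 7.37 and 7.76 in the esophagus and 9.45, 10.24 and 10.41 in the stomach. All 6 arrays were well above background, and the tissues did not overlap. The difference was -2.47 ± 0.26 (SE, adjusted p = 6.20e-04), or 5.56-fold. Of the 7 genes on the list of other family members and their proteases, *Atf6* and *Creb3l2* among them, limma called 0 in either direction, against 7.7% of all genes toward the stomach and 7.15% toward the esophagus, so with 7 genes the count is near the background. *Creb3l2*, named after its values were seen, was the 1 gene with an unadjusted p under 0.05 (0.0155), with a difference of -0.87 ± 0.28 (SE), and it was called with the mouse as a block (adjusted p = 0.0465) and without esophagus replicate 4 (0.00991). *Atf6*, the sensor, read 8.28 ± 0.43 (SD, n = 3) in the esophagus and 8.49 ± 0.44 in the stomach (adjusted p = 0.739).

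*Xbp1*, the transcription factor downstream of IRE1, was the 1 general factor called higher in the stomach. Its probe (NM_013842, mm9 chr11:5425816-5425875, plus strand) read 14.02, 13.67 and 13.64 in the esophagus and 15.51, 15.72 and 15.49 in the stomach. It was bright in both tissues, and the arrays of each tissue lay within 0.38 of each other. The difference was -1.79 ± 0.17 (SE, adjusted p = 2.85e-04), or 3.47-fold. Whether the probe separates the spliced from the unspliced mRNA was not checked, and the splicing by IRE1 was not measured.

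*Ern1*, which encodes IRE1α, the IRE1 of most cells, leaned the other way at all 4 of its probes, which lie on the minus strand of chromosome 11. The probe annotated to NM_023913 (mm9 chr11:106258948-106259007) read 7.15, 7.92 and 7.84 in the esophagus and 7.14, 7.19 and 6.95 in the stomach. Its tissues overlapped, with a difference of 0.54 ± 0.22 (SE, adjusted p = 0.193). The other probes are annotated to Ensembl transcripts only. The first of these (ENSMUST00000106801.7, mm9 chr11:106275124-106275183) read 7.20, 7.33 and 6.98 in the esophagus and 6.14, 6.16 and 6.42 in the stomach. This gave 0.93 ± 0.16 (SE, adjusted p = 0.00826), the smallest adjusted p of the 4, with no overlap between the tissues. The next (ENSMUST00000106800.1, mm9 chr11:106296065-106296124) read 7.61, 8.08 and 7.13 in the esophagus and 5.96, 5.96 and 6.83 in the stomach. This was a difference of 1.35 ± 0.32 (SE, adjusted p = 0.0294).

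Only the first of the 2 *Ern1* calls held under every alternative. At the ENSMUST00000106800.1 probe the adjusted p was 0.0705 with the mouse as a block, and it was 0.0637 without esophagus replicate 1, 0.0899 without esophagus replicate 2, 0.126 without stomach replicate 1 and 0.124 without stomach replicate 2. The 4th probe (ENSMUST00000106799.1) differed by 0.79 ± 0.24 (SE, adjusted p = 0.0838) and was well above background on 2 of 3 stomach arrays. Conversely, the NM_023913 probe had an adjusted p of 0.0265 without esophagus replicate 1, and the mean of the 4 probes differed by 0.90 (adjusted p = 0.0208). The IRE1 paralogs had called probes in opposite directions, *Ern2* higher in the stomach and *Ern1* higher in the esophagus at 2 of its 4 probes.

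**Figure D2:**
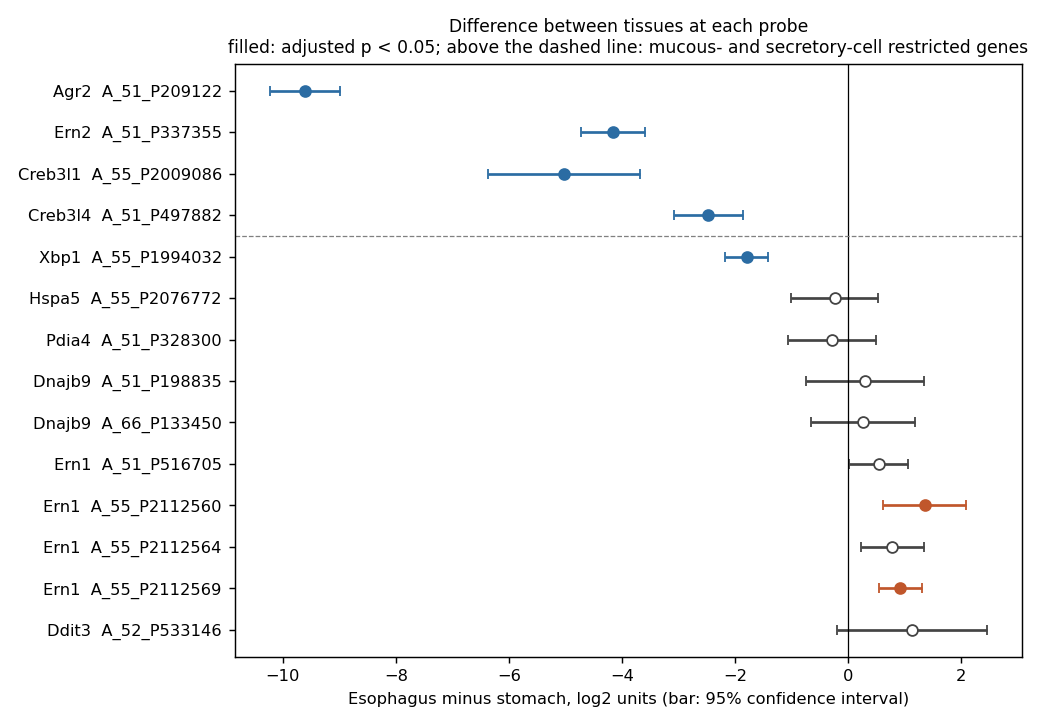
Difference between the tissues at each probe (horizontal axis, esophagus minus stomach in log2 units, bars for the 95% confidence interval), with filled circles for adjusted p under 0.05 and open circles for the rest. The 4 probes above the dashed line and *Xbp1* lie left of 0, with intervals from -10.22 to -1.41, and the 2 filled probes to the right are both of *Ern1*.

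*Hspa5*, the main chaperone of the ER and the gene with ERSE in its promoter, did not pass. Its probe (NM_022310, mm9 chr2:34631913-34631972, plus strand) read 15.56, 15.52 and 15.40 in the esophagus and 15.50, 15.16 and 16.55 in the stomach. The 3 esophageal arrays and the stomach arrays of mice 1 and 2 lay close together, and the stomach array of mouse 4 stood above all others. The difference was -0.24 ± 0.33 (SE, 95% confidence interval -1.01 to 0.53, adjusted p = 0.746), and 0.17 without stomach replicate 4.

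*Pdia4*, an isomerase that works beside BiP, read 9.68, 9.91 and 10.07 in the esophagus and 10.61, 10.56 and 9.36 in the stomach (NM_009787). Here the stomach array of mouse 4 was the lowest of the 6. The difference was -0.29 ± 0.33 (SE, 95% confidence interval -1.06 to 0.49, adjusted p = 0.692). Without stomach replicate 4 it was -0.70, with an adjusted p of 0.0493, and without stomach replicate 1 it was -0.068 (0.952).

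*Dnajb9* encodes ERdj4, a BiP cochaperone that is a well-known target of XBP1. The brighter of its 2 probes (mm9 chr12:45307313-45307372, minus strand) read 11.55, 11.88 and 10.41 in the esophagus and 10.73, 10.46 and 11.77 in the stomach, and the dimmer one 6.54, 7.43 and 6.11 against 6.26, 5.94 and 7.09. At both probes mouse 4 was the lowest in the esophagus and the highest in the stomach. The differences were 0.30 ± 0.45 (SE, adjusted p = 0.774) and 0.26 ± 0.40 (SE, adjusted p = 0.77), and without esophagus replicate 2 they were -0.0047 and -0.11.

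*Ddit3* encodes CHOP, the factor downstream of PERK and ATF4 that is linked to cell death under lasting stress. Its probe (NM_007837, mm9 chr10:126732518-126732821, plus strand) read 9.71, 10.08 and 7.84 in the esophagus and 7.61, 7.92 and 8.73 in the stomach. Esophageal mice 1 and 2 lay above all stomach arrays, and esophageal mouse 4 lay among them. The difference was 1.13 ± 0.57 (SE, 95% confidence interval -0.20 to 2.45, adjusted p = 0.291). Without esophagus replicate 4, the array on the other slide, it was 1.81 with an adjusted p of 0.0142, and without esophagus replicate 2 it was 0.69 (0.591). Taking the slide as a block gave the values without esophagus replicate 4, since that slide held no other array.

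The stomach array of mouse 4 was compared with the mean of the other 2 stomach arrays at each general factor. It stood higher by 1.22 at *Hspa5*, 1.17 at the brighter *Dnajb9* probe and 0.96 at *Ddit3* on the log2 scale, and lower at *Pdia4*, by -1.23, whereas *Xbp1* moved by -0.13. The *Ern1* probes moved by -0.22 to 0.87, with 0.87 at the called ENSMUST00000106800.1 probe. *Agr2*, *Ern2*, *Creb3l1* and *Creb3l4* moved by -0.35 to 0.56. Of 21370 probes well above background on every array, 3.49% stood more than 1 above and 3.80% more than 1 below. Among the 17 such genes of the PERK and integrated stress response list described next, 7 (41.2%) stood more than 1 above and none more than 1 below. Over the 15632 such genes of the arrays the shares were 3.77% above and 3.96% below. The share above was 17.6% for disulfide isomerases and oxidases, 8.33% for the translocon, 8% for ER exit and 4.55% for ER-associated degradation. It was 0 for the chaperones, the IRE1 partners and the ATF6 and CHOP lists. List medians ran from -0.32 (CHOP) to 0.74 (PERK), against 0.0475 over all such genes. *Trib3*, a brake on ATF4 signaling, was 2.73 above, and the serine synthesis enzymes *Phgdh* and *Psat1* were 2.02 and 1.79 above. The oxidase *Ero1l*, another ER gene named here after its values were seen, read 13.30 on this array against 9.31 and 9.21 on the other stomach arrays. Cell type markers also moved on this array. Of the 15 mucous cell genes, all detected on each stomach array, 2 stood more than 1 above and 4 more than 1 below, against 3.81% and 4.38% of the 17541 genes detected there. The pit cell mucin *Muc5ac* stood at -2.08 and the neck cell mucin *Muc6* at 1.93 against the other stomach arrays, and *Gif*, a chief cell marker, at -2.59. Mean levels on the stomach arrays of mice 1, 2 and 4 were 15.13, 14.69 and 14.17 for the 4 pit markers, 14.33, 14.62 and 14.88 for the 4 neck markers, 10.13, 10.72 and 10.31 for the 4 chief markers and 5.33, 5.15 and 6.10 for the 4 endocrine markers. *Muc5ac*, *Muc6* and *Gif* were named after their values were seen. Whether cell makeup, mouse, day of harvest or the handling of this array moved these genes was not tested.

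**Figure D3:**
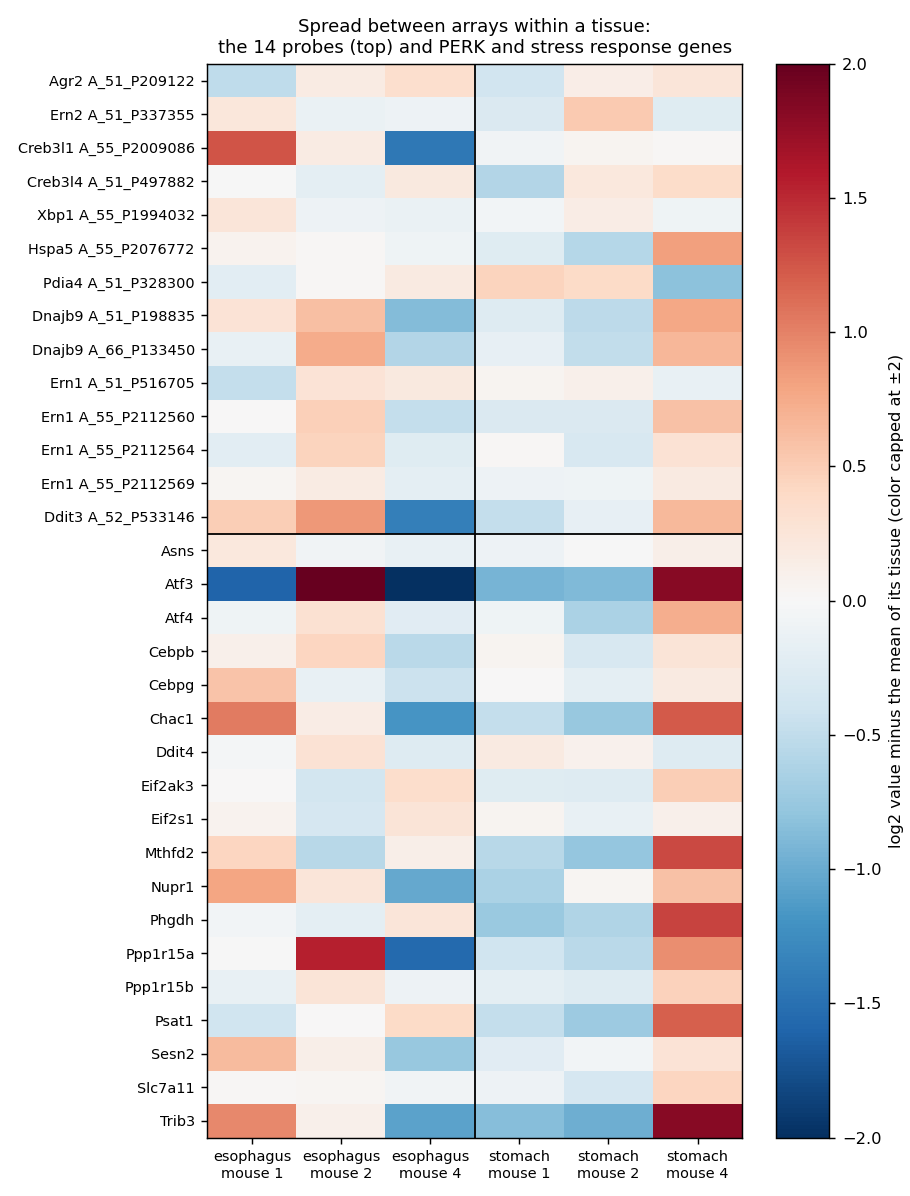
Log2 value of each array minus the mean of its tissue (color, capped at ±2) for the 14 probes above the horizontal line and the 18 genes of the PERK and integrated stress response list below it, with one column for each array. The last column, stomach mouse 4, is red at *Hspa5*, *Dnajb9*, *Ddit3*, *Trib3* and *Chac1* and blue at *Pdia4*.

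The other genes of the pathway, with a list of mucous cell genes beside them, were taken as 10 lists of 170 genes. Each gene was represented by its brightest probe. Of the 170, 38 (22.4%) were called higher in stomach organoids, 11 (6.47%) in esophageal organoids and 121 in neither. Over all gene names the shares were 7.7% and 7.15%, and over the 18485 detected throughout at least 1 tissue, as were 164 of the 170, they were 13.9% and 12.8%. The esophageal count moved when single arrays were left out. It was 4 without stomach replicate 2, 5 without stomach replicate 1, 7 without esophagus replicate 1 or 2, and 4 to 16 over all leave-outs, and it was 7 with processed signals scaled to the 75th percentile. All 15 mucous cell factors and products were among the 38. These 15 are not ER machinery, so the 38 is not a count of ER genes alone, and the other lists are given one by one below. The median of the 15 mucous cell genes, -7.26, was -6.13 with the offset of 50 and -10.1 with the 75th percentile scaling. It falls at *Muc1*, which was not well above background on any esophageal array, so it is not an exact size. The 15 included *Tff2*, a trefoil peptide of neck mucous cells, with a bound, by the means, of at least 6348-fold more signal in the stomach. Its measured difference was -11.62 with the offset of 50. *Tff1*, that of pit cells, read 17.88 on all 3 stomach arrays, the highest value of the table on each, and 5.30 to 5.67 in the esophagus, where it was well above background on 1 of 3 arrays, so no exact size is given. *Spdef*, a transcription factor of mucous cells, read 8.21, 7.41 and 5.30 in the esophagus and 10.46, 10.84 and 10.74 in the stomach (-3.71 ± 0.65, SE, adjusted p = 0.00798). It was well above background on 2 of 3 esophageal arrays, and without esophagus replicate 4 the difference was -2.87. As at *Creb3l1*, its esophageal values were highest in mouse 1 and lowest in mouse 4.

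The PERK and integrated stress response list was the 1 list with called genes in the esophageal direction only: 5 of 18 genes (27.8%) were called higher there and 0 the other way, with a median of 1.16 against 0.03 over all genes. Over the genes detected throughout at least 1 tissue, as all 18 were, the shares were 12.8% and 13.9%. At an unadjusted p under 0.05 (limma), 11 of the 18 genes leaned to the esophagus and 0 to the stomach, against 14.5% and 13% of all genes at the same threshold. These unadjusted shares also count genes that were not detected, so they are not a like comparison. *Ddit4*, an mTORC1 inhibitor induced by stress, read 15.66, 15.99 and 15.44 in the esophagus and 13.60, 13.51 and 13.17 in the stomach. Its tissues did not overlap, and it was 2.27 ± 0.20 (SE) higher in the esophagus (adjusted p = 2.13e-04). *Chac1*, a glutathione-degrading enzyme downstream of ATF4, read 14.98, 14.09 and 12.77 against 10.54, 10.27 and 12.25, a difference of 2.93 ± 0.66 (SE, adjusted p = 0.0253). The *Chac1* call was lost with the mouse as a block (adjusted p = 0.0614), and without esophagus replicate 1 (0.056), esophagus replicate 2 (0.0813), stomach replicate 1 (0.111) or stomach replicate 2 (0.109). The cystine transporter *Slc7a11*, named after its values were seen, was 1.64 ± 0.21 (SE) higher in the esophagus (adjusted p = 0.00174) and kept this call under every alternative.

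*Atf4*, the central factor of this branch, read 17.13, 17.52 and 16.99 in the esophagus and 16.22, 15.67 and 17.04 in the stomach. The stomach array of mouse 4 lay within the esophageal range, and the difference of 0.90 ± 0.33 (SE) did not pass (adjusted p = 0.145). Without that array it was 1.27 (adjusted p = 0.0167), and the count of genes on the list higher in the esophagus went from 5 to 9. *Atf4*, *Trib3*, *Phgdh*, *Psat1* and *Mthfd2* were then called and *Eif2s1* was not. These genes beyond *Atf4* were named after their values were seen. The count was 2 without stomach replicate 1 or 2 and 3 without esophagus replicate 1 or 2. Across all alternatives it was 2 to 11, and no gene of the list was called higher in the stomach under any of them. *Eif2ak3*, which encodes PERK itself, read 8.96 ± 0.36 (SD, n = 3) in the esophagus and 9.21 ± 0.42 in the stomach (adjusted p = 0.663).

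Of 23 ER chaperones and cochaperones, 6 (26.1%) were called higher in stomach organoids and 1 (4.35%) in esophageal organoids, with a median of -0.41. Over the genes detected throughout at least 1 tissue the shares were 13.9% and 12.8%. The stomach count was 2 without stomach replicate 2, 2 to 7 over all leave-outs, and 2 with the 75th percentile scaling. *Dnajc10*, a reductase that acts with BiP, differed by -2.38 ± 0.20 (SE, adjusted p = 1.53e-04). *Sil1*, the nucleotide exchange factor of BiP, differed by -1.17 ± 0.23 (SE, adjusted p = 0.0134), with an adjusted p of 0.0662 without stomach replicate 2 and 0.125 with the 75th percentile scaling. *Serpinh1*, the collagen chaperone, went the other way, with at least 8.14-fold more in the esophagus (adjusted p = 0.0089), where it read 6.88, 8.17 and 9.34. With the offset of 50 the measured difference was 2.22 and the call was lost (adjusted p = 0.05), and it was 2.42 to 3.65 when each array was left out in turn. *Hsp90b1*, the ER member of the HSP90 family, read 14.43 ± 0.31 (SD, n = 3) in the esophagus and 15.08 ± 0.49 in the stomach (adjusted p = 0.201).

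Of 19 disulfide isomerases and oxidases, the stomach had 6 calls (31.6%) and the esophagus 1 (5.26%), against 13.9% and 12.8% of the detected genes, with a median of -0.59. *Pdia5* differed by -2.88 ± 0.25 (SE, adjusted p = 2.01e-04) and the sulfhydryl oxidase *Qsox1* by -2.68 ± 0.45 (SE, adjusted p = 0.00701). *Qsox1* read 12.74, 12.02 and 10.72 in the esophagus, again with mouse 4 the lowest, and 14.57, 14.67 and 14.29 in the stomach. *Tmx3* was 0.93 ± 0.23 (SE) higher in the esophagus (adjusted p = 0.0371), a call kept without stomach replicate 4 and lost without any 1 of the other 5 arrays (adjusted p = 0.0587 to 0.151). *Pdia6* read 14.76 ± 0.33 (SD, n = 3) in the esophagus and 15.30 ± 0.42 in the stomach (adjusted p = 0.266). *Agr3*, the paralog of *Agr2*, named after its values were seen, read 5.25 to 5.37 in the stomach and 4.46 to 4.88 in the esophagus and was dim in both. It was called higher in the stomach (adjusted p = 0.0429), but not with the mouse as a block (0.0905) nor without any 1 array (0.056 to 0.151).

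Of 27 genes of ER exit and Golgi return, 4 (14.8%) were called higher in stomach organoids and 0 the other way. Over the genes detected throughout at least 1 tissue the shares were 13.9% and 12.8%. The median was -0.12, and 0.04 under the 75th percentile scaling. At an unadjusted p under 0.05 (limma), 5 of the 27 were higher in stomach and 3 in esophageal organoids, against 13% and 14.5% of all genes, those not detected included. The called counts were 4 and 3 with the offset of 50 and 2 and 0 with the 75th percentile scaling, stomach first. *Sec16b*, a scaffold of ER exit sites, read 4.67, 4.78 and 4.71 in the esophagus, where it was not well above background, and 9.92 to 10.33 in the stomach. The bound was at least 34.9-fold more in the stomach (adjusted p = 6.42e-07), with a measured difference of -4.14 with the offset of 50. *Mia3*, which encodes the cargo receptor TANGO1, differed by -1.55 ± 0.15 (SE, adjusted p = 4.14e-04). Of 24 genes of the translocon and signal peptidase, 2 (8.33%) were called toward the stomach and 1 (4.17%) toward the esophagus, with a median of 0.04. Both shares were below those of the detected genes. The signal peptidase subunit *Sec11c* differed by -1.64 ± 0.28 (SE, adjusted p = 0.00728). The *Ssr2* call (-0.85 ± 0.21, SE, adjusted p = 0.0356) held only without esophagus replicate 4 among the leave-outs (adjusted p = 0.0542 to 0.138 otherwise), and the *Sec61a2* call (0.59 ± 0.15, SE, adjusted p = 0.0438) only without stomach replicate 4 (0.0694 to 0.17 otherwise), with 0.0991 under the mouse block.

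Of 24 genes of ER-associated degradation, 3 (12.5%) were called toward the stomach and 2 (8.33%) toward the esophagus. These shares were no higher than the 13.9% and 12.8% of genes detected throughout at least 1 tissue. The median was -0.13 (0.02 under the 75th percentile scaling). The stomach count was 0 without stomach replicate 1 or 2 and 0 to 4 over all leave-outs, the esophageal count was 0 without stomach replicate 2, 1 without stomach replicate 1 or esophagus replicate 4, and 0 to 3 over all, and the 75th percentile scaling gave 1 and 0. The lectin *Erlec1* differed by -1.75 ± 0.38 (SE, adjusted p = 0.0222) and *Os9* by -0.86 ± 0.18 (SE, adjusted p = 0.0208). Without stomach replicate 1 or 2 neither passed, with adjusted p of 0.0987 and 0.0938 for *Erlec1* and 0.0879 and 0.0911 for *Os9*. *Ufd1* and *Derl1* were 0.84 ± 0.17 and 0.74 ± 0.18 (SE) higher in the esophagus (adjusted p = 0.0163 and 0.0369), *Ufd1* with an adjusted p of 0.0578 without stomach replicate 2 and *Derl1* with 0.0526 under the mouse block. *Derl1* had an adjusted p of 0.0921 without esophagus replicate 1, 0.0798 without esophagus replicate 4, 0.139 without stomach replicate 1 and 0.143 without stomach replicate 2.

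Of the 7 IRE1 partners, 1 was called in each direction (14.3% each, near the 13.9% and 12.8% of the detected genes). *Tmbim6*, the IRE1 inhibitor BI-1, read 12.59, 12.94 and 12.97 in the esophagus and 14.16, 14.40 and 14.56 in the stomach (-1.54 ± 0.18, SE, adjusted p = 9.92e-04). *Ptpn1*, a phosphatase of the ER membrane, was 1.67 ± 0.18 (SE) higher in the esophagus (adjusted p = 7.53e-04). Of 6 genes linked to CHOP and apoptosis, *Bcl2*, a survival factor, was called higher in the stomach (-1.37 ± 0.31, SE, adjusted p = 0.0252). The *Bcl2* call was lost under the mouse block (0.0572), and without esophagus replicate 1 (0.0534), esophagus replicate 2 (0.0514), stomach replicate 1 (0.107) or stomach replicate 2 (0.108).

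**Figure D4:**
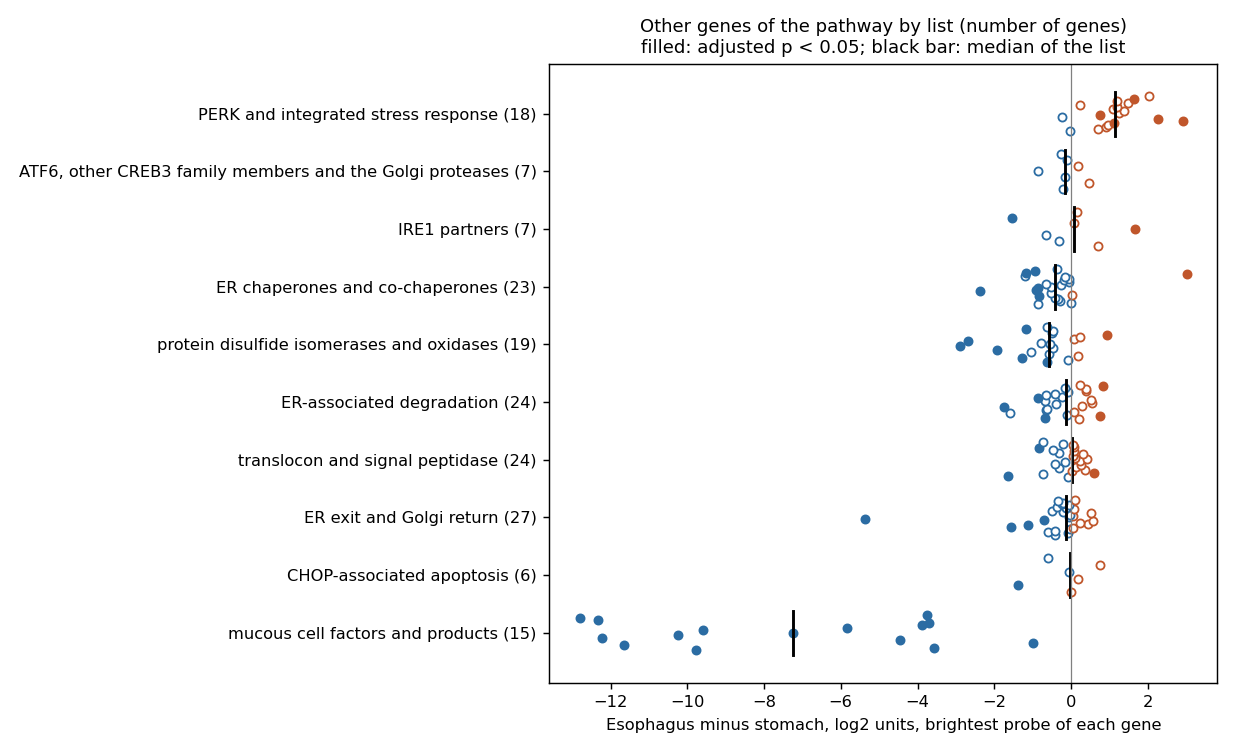
Difference between the tissues (horizontal axis, esophagus minus stomach in log2 units) for the brightest probe of each of the 170 genes, by list, with orange circles to the right of 0, blue ones to the left, filled circles for adjusted p under 0.05, and a black bar for the median of each list. All 15 mucous cell genes are filled on the stomach side, and the PERK and integrated stress response list has its median at 1.16 with 5 filled circles, all on the esophageal side.

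Promoters were found for 138 of the 170 listed genes, and ERSE stood in those of 9 of them, listed here in the order of the gene lists with the match in capitals and 5 bases on each side. These are mostly chaperones, isomerases and degradation factors, for which the element is known from the literature, so the list is not independent of it. A match on the other strand reads CGTGG, any 9 bases and ATTGG. The *Hsp90b1* promoter held a pair of matches.
Hsp90b1, chr10:86705638-86705656, minus strand: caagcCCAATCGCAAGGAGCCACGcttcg
Hsp90b1, chr10:86705533-86705551, minus strand: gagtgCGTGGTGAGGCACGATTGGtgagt
Calr, chr8:84847075-84847093, minus strand: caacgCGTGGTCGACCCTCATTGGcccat
Canx, chr11:50325800-50325818, minus strand: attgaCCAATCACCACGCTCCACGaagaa
Creld2, chr15:88819520-88819538, plus strand: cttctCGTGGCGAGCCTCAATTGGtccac
Dnajc3, chr14:118937827-118937845, plus strand: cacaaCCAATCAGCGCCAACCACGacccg
Pdia6, chr12:17266491-17266509, plus strand: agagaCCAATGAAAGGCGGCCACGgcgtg
Ero1lb, chr13:12565682-12565700, plus strand: ggcctCGTGGTCCCGCCTCATTGGccgcc
Syvn1, chr19:6046532-6046550, plus strand: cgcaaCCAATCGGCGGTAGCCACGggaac
Derl3, chr10:75893242-75893260, plus strand: tctacCGTGGGACTTCCCCATTGGctagc

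All 9 genes had a difference below 0 (esophagus minus stomach), with a median of -0.84, as did 46.5% of the 18485 genes whose brightest probe was detected throughout at least 1 tissue. The chaperone, isomerase and degradation lists that the 9 come from also had medians below 0 (-0.41, -0.59 and -0.13). The direction is thus not shown to be particular to genes with the element. Of the 9, 3 were called higher in the stomach, against 13.9% of these 18485 genes: *Creld2* (-0.84 ± 0.21, SE, adjusted p = 0.0403), *Dnajc3* (-0.91 ± 0.20, SE, adjusted p = 0.0233) and *Ero1lb* (-1.27 ± 0.21, SE, adjusted p = 0.00587). The *Creld2* and *Dnajc3* calls each held only without esophagus replicate 4 among the leave-outs (adjusted p = 0.0524 to 0.12 otherwise), and neither held under the 75th percentile scaling (0.419 and 0.277). *Derl3* was at -1.58 (adjusted p = 0.162) and at -0.79 without stomach replicate 4, and *Canx* was nearest 0, at -0.0099, with 0.31 under the 75th percentile scaling and 0.14 without stomach replicate 4, while *Hspa5* with the same element was at -0.24. These 9 were picked out by their sequence after their values were seen and are given as a description, with no test. In the PERK and integrated stress response list, 6 of the 17 genes with a promoter held the C/EBP-ATF composite, *Atf3*, *Trib3*, *Chac1*, *Asns*, *Slc7a11* and *Nupr1*, and none held ERSE. *Chac1* and *Slc7a11* are shown because they were called higher in the esophagus, whereas *Atf3*, *Trib3*, *Asns* and *Nupr1* were not called (adjusted p = 0.118 to 0.928). Over all lists the composite stood in 11 of the 138 promoters. Its carriers on other lists, *Cnpy2*, *Txndc5*, *Herpud1*, *Faf2* and *Kdelr1*, were not called (adjusted p = 0.291 to 0.603). *Sec16b* is shown as an example of the UPRE core, picked for the largest difference among the genes of ER exit. The UPRE core stood in 8 of the 138 promoters, 4 of them of ER exit genes, and the other 7 genes with it, *Txndc5*, *Txndc11*, *Ube2j1*, *Vcp*, *Sec23a*, *Sec24d* and *Kdelr3*, were not called (adjusted p = 0.17 to 0.948).
Chac1, chr2:119351048-119351056, plus strand: ctgccGTTGCATCActcct
Slc7a11, chr3:50443671-50443679, minus strand: gtggcTGATGCAAAcctgg
Slc7a11, chr3:50443653-50443661, minus strand: gagaaTTTGCATCAtcatg
Sec16b, chr1:157506752-157506759, plus strand: gtggcTGACGTGGcacgg

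Markers of the labelled tissues were checked. All 6 squamous keratinocyte markers were well above background on every esophageal array and 1 on every stomach array. The markers of pit and neck mucous cells were all called higher in the stomach (4 of 4 each), with mean levels per array of 14.17 to 15.13 and 14.33 to 14.88 there against 4.90 to 5.20 and 5.43 to 5.46 in the esophagus. All of these pit and neck markers are also among the 15 mucous cell genes above, by the same probes, so their count repeats that result. Mucous-cell markers were thus higher in the same tissue as *Agr2*, *Ern2*, *Creb3l1* and *Creb3l4*, and their part in these differences was not tested. Of the 4 chief cell markers 3 were called higher in the stomach, among them *Bhlha15*, which is also counted with the mucous cell genes above. Of the 3 parietal cell markers 2 were below background on all stomach arrays. The third, *Atp4a*, was well above background on 3 of 3 stomach arrays and 0 of 3 esophageal ones, with a bound of at least 1.94-fold (adjusted p = 0.0177). None of the 4 endocrine, 5 fibroblast, 3 immune and 3 endothelial markers was called in either direction (limma), and 2 of these 15 had an unadjusted p under 0.05. The brightest *Trp63* probe was higher in the stomach, against its label as a squamous marker (-1.22, adjusted p = 0.0249).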

How the data were processed

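RNA of 3 esophageal and 3 stomach organoid cultures was hybridized by the authors to single-color Agilent mouse arrays and scanned with Feature Extraction 11.5.1.1. Deposited scanner files give a raw intensity and background intensity for each of 62976 spots (59305 not controls) with probe coordinates in mm9. In the deposited table, the authors' log2 values are background corrected and quantile normalized. Normexp with an offset of 15 on median intensities and quantile normalization gave these log2 values to a median absolute difference of 0.00433. The table leaves 2029 outlier-marked spots empty. The table's rows were tied to probes by feature number.

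Log2 values were averaged per probe and compared with limma 3.58.1 (lmFit and eBayes, R 4.3.3), esophagus minus stomach, with no block, and Benjamini-Hochberg adjustment over 55681 probes. The methods state limma and a 1.5-fold threshold, which was an alternative. Gene lists use each gene's brightest probe. Named genes were all 10 genes with every probe, the 2 called genes with the largest difference in each direction of each list (detected above background on each array of at least 1 tissue), and *Eif2ak3*, *Atf6*, *Atf4*, *Hsp90b1*, *Pdia6* and *Spdef*. Others are marked as named after their values were seen. The genes and lists were chosen with earlier results of these data known.

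The labels number the mice, and both tissues carry the numbers 1, 2 and 4. A shared animal is not stated outright, and the mouse block was an alternative. Deviations of a mouse's arrays from the tissue means correlated with r of 0.025, 0.0119 and -0.00787 for mice 1, 2 and 4, against -0.0726 to 0.0405 for unmatched arrays, so the values do not show a pairing. With 3 arrays per tissue, an exact permutation test of 1 probe cannot give a p below 0.1. Precision is limited by the array number, and p-values measure the spread between these cultures. Promoters and gene starts are from RefSeq (GRCm38.p6), and no coordinates were converted. Protein sequences were not analysed here.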

Additional observations from a re-analysis of the deposited data

How the results depend on the processing

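The calls of *Agr2*, *Ern2*, *Creb3l1*, *Creb3l4* and *Xbp1* held under all 17 alternatives: normexp on mean intensities with an offset of 16 or 50, processed signals scaled to the 75th percentile, outlier-marked spots kept, the mouse or slide as a block, a trended robust prior, a filter on dim probes, probes of a gene averaged, the 1.5-fold threshold with or without adjustment, and each array left out. The count of called probes among the 14 was 6 to 8 throughout. With the mouse number as a replicate block, 6 of the 14 were called and 6153 of all probes, the count higher in the esophagus going from 2 to 1, and 47 listed genes were called. The block also brought *Creb3l2* (adjusted p = 0.0465), *Calr* (0.0399) and *Psat1* (0.0333) under the threshold, and among the genes given it changed no call beyond these and those stated beside the results. Other calls were lost with the 75th percentile (*Sil1* 0.125, *Derl1* 0.0917, *Os9* 0.359, *Ssr2* 0.41, *Tmx3* 0.0874, *Ufd1* 0.0697, *Sec61a2* 0.191, *Creld2* 0.419 and *Dnajc3* 0.277 as adjusted p), with an offset of 50 (the ENSMUST00000106800.1 probe of *Ern1* 0.0652, *Chac1* 0.0689, *Bcl2* 0.0521, *Erlec1* 0.0568, *Serpinh1* 0.05, *Ssr2* 0.0529) and with the trended prior (*Chac1* 0.0746, *Derl1* 0.0504, *Sec61a2* 0.145, *Tmx3* 0.0546). *Eif2s1* and *Cebpg* of the PERK and integrated stress response list, named after their values were seen, were also lost with the 75th percentile (0.0813 and 0.0506). *Cebpg* was lost with the offset of 50 too (0.059). The *Eif2s1* call held in 1 of 6 leave-outs (adjusted p = 0.0214 to 0.151) and the *Cebpg* call in 3 (0.0152 to 0.122). Leaving out 1 array gave 4091 to 7415 called probes on the arrays, with 4091 without stomach replicate 1 and 4152 without stomach replicate 2. It gave 30 to 51 listed genes, with 30 without stomach replicate 2. Some uncalled differences changed sign: *Hspa5* (0.060 with the 75th percentile, -0.53 to 0.17 over the leave-outs), the *Dnajb9* probes (-0.0047 to 0.73 and -0.11 to 0.59), *Atf6* (-0.45 to 0.035) and *Canx* (0.31 with the 75th percentile, 0.030 with the slide as a block, -0.11 to 0.14 over the leave-outs). The 75th percentile scaling moved the median of all probes to 0.20 from 0.02, and 44.3% instead of 48.8% of calls were then higher in the esophagus. Dim probes limit what can be seen: *Ern2*, *Sec16b* and *Tff2* have only bounds in the esophagus. The cause of these shifts was not tested.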
